A study of Homo sapiens with 8 samples.

Results

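The 35 genes described here encode heat shock proteins, their co-chaperones, and the folding and quality control machinery of the endoplasmic reticulum (ER). They were chosen as a list of gene symbols with earlier results of these data known, so counts of members called are descriptive only. Each symbol matched 1 of the 52576 rows of the expression table. All 35 were among the 13979 genes that averaged 1 RPKM or more over the libraries (RPKM, reads scaled to gene length and to the size of the library), which were the genes tested. By compartment, 13 belong to the cytosol, 2 to mitochondria and 20 to the ER. Not every member is a chaperone: HERPUD1, SEL1L, EDEM1 and SYVN1 serve the degradation of misfolded ER proteins, XBP1 encodes a transcription factor of the ER stress response, and SEC61B encodes a subunit of the channel through which proteins enter the ER.

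Poly(A) RNA was sequenced from NCI-H2009, an established human lung adenocarcinoma line. All cells carried dCas9-KRAB, a fusion of a Cas9 without nuclease activity and a domain that brings in repressors of transcription. Of the 4 groups of 2 libraries, one received guide RNA 1 to the enhancer e3 and one received guide RNA 2 to the same enhancer. The controls received a non-targeting guide or no guide RNA. Enhancer e3 is studied as an enhancer of MYC, which encodes a transcription factor of cell growth. Whether both libraries of a group are from separate cultures is not stated in the labels, so p-values cover only a spread between libraries that could be technical.

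Chaperones bind unfolded or partly folded proteins and keep them from aggregating while they reach their final shape. In the cytosol, proteins of the HSP70 and HSP90 families work in turn with co-chaperones that deliver clients or set the pace of ATP hydrolysis, and heat shock factor 1 raises many of their genes when unfolded proteins accumulate. The ER has its own HSP70 and HSP90 proteins, lectin chaperones and disulfide isomerases, whose genes are raised by the unfolded protein response through ATF6, XBP1 and ATF4, and tumour cells commonly carry high levels of both systems.

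MYC had 42.4 and 43.4 RPKM with guide 1, and 36.3 and 36.2 with guide 2, against 88.9 and 90.1 RPKM with the non-targeting guide and 74.6 and 72.7 RPKM without a guide. It fell by 1.02 ± 0.10 on the log2 scale (e3 libraries against controls, ± SE; limma, adjusted p = 0.00215), so the targeted gene followed the labels. Between 3847807 and 5711042 reads per library lay in the genes tested. On the first principal component (38.9% of the variance) the other 6 libraries scored -18.5 to -5.74, and those without a guide 36.9 and 38.3. The summed RPKM of a library was 347023 to 355799 with the e3 guides, 365111 and 366488 with the non-targeting guide, and 352658 and 353264 without a guide. All 8 epithelial markers were detected in every library, and their summed level was 3107 to 3202 RPKM with the e3 guides, 2720 and 2870 RPKM with the non-targeting guide, and 3416 and 3538 RPKM without a guide. The 5 leukocyte markers and the 3 endothelial markers found in the expression table each summed to under 1 RPKM in each library. Not every endothelial marker listed had a row there. The 6 fibroblast markers summed to 6.15 to 7.18 RPKM with the e3 guides, 5.06 and 5.76 RPKM with the non-targeting guide, and 3.33 and 4.55 RPKM without a guide, with COL1A1 the only one above the minimum for testing and 3 to 5 of the 6 at 0. The part of these differences in the results on the chaperone genes was not tested.

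Promoter windows of 300 bases (250 before and 50 from the annotated start) were listed in RefSeq for 33 of the 35 members, the exceptions being FKBP4 and PDIA3. Coordinates of these windows are on GRCh38.p14, whereas the expression table was made on hg19. The heat shock element, the site of heat shock factors, was searched on both strands as GAA, TTC and GAA with 2 bases of any kind after each of the first pair. The ER stress element was searched as CCAAT, 9 bases of any kind and CCACG, and its second form as ATTGG, 1 base of any kind and CCACG. The heat shock element matched in 5 of 12 cytosolic members (HSPA8, HSP90AA1, HSP90AB1, DNAJA1 and CHORDC1), in the second listed window of HSPD1 and in 0 of 19 ER members, against 0.608% of 27305 genes. The first ER stress element matched in 7 of 19 ER members (HSPA5, HSP90B1, CALR, CANX, PDIA6, XBP1 and CRELD2) and in no cytosolic or mitochondrial member, against 0.0916% of genes. The second form matched in HYOU1, SDF2L1 and HERPUD1, against 0.0696% of genes. The sequence CACGTG, the E-box bound by MYC and related factors, matched in HSPD1, HSPE1, CANX, DNAJB9, HERPUD1 and HSP90B1, against 8.77% of genes. TGACGTG, the core of a site bound by ATF6 and XBP1, matched in HYOU1, where it overlaps a match of the second ER stress element, and in HSP90AB1, against 2.4% of genes. The windows printed here are those of 5 members whose levels are described below. Capitals mark the E-box in HSPD1 (chr2:197500225-197500524, minus strand) and heat shock elements in HSPA8 (chr11:123062087-123062386, minus strand) and HSP90AB1 (chr6:44247693-44247992, plus strand). They also mark the first ER stress element in HSPA5 (chr9:125241294-125241593, minus strand) and the second in SDF2L1 (chr22:21642052-21642351, plus strand). Each window reads 5′ to 3′ on the strand of its gene.
HSPD1: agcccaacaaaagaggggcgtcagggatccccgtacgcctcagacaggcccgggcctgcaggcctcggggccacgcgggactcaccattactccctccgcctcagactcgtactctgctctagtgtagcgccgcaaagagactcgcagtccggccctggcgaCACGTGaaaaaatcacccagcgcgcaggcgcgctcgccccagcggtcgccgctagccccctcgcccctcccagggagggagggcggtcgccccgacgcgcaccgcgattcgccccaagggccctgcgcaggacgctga
HSPA8: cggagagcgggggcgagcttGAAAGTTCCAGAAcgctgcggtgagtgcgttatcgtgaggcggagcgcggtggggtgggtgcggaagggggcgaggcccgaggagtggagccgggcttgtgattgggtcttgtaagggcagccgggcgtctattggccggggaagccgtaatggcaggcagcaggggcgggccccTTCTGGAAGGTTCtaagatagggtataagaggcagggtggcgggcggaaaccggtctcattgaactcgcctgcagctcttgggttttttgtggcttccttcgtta
HSP90AB1: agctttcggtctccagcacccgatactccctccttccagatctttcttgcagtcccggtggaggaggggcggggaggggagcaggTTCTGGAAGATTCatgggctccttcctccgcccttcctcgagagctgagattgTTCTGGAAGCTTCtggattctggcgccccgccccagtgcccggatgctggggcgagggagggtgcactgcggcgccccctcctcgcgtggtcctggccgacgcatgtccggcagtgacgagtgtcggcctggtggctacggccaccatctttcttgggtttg
HSPA5: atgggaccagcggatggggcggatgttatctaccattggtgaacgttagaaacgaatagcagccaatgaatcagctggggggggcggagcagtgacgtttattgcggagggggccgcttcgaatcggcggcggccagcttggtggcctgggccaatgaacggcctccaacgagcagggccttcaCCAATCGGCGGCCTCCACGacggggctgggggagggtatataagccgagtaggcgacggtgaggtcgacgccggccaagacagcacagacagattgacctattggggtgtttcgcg
SDF2L1: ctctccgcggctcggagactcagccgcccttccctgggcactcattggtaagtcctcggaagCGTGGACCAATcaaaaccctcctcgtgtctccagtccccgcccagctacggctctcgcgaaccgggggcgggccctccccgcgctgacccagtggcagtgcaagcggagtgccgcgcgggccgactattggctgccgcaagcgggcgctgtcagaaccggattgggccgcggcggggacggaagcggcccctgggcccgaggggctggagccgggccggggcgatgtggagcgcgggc
A match describes these letters only, and binding was not measured.

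The mitochondrial pair was lower with the e3 guides. HSPD1 and HSPE1 encode the chaperonin HSP60 and its lid HSP10, which together form the folding chamber of the mitochondrial matrix. They are transcribed in opposite directions from one shared region, and their annotated starts lay 105 bases apart. Their windows overlapped by 204 bases, and the CACGTG in the HSPD1 window is the same site (chr2:197500357-197500362) as the one in the HSPE1 window. HSPD1 (ENSG00000144381.11) had 261 and 267 RPKM with guide 1, and 241 and 256 with guide 2, against 395 and 377 RPKM with the non-targeting guide and 331 and 307 RPKM without a guide. Every e3 library was below every control library, and the no-guide libraries lay between the e3 and the non-targeting ones. HSPD1 averaged 256 ± 11.0 RPKM with the e3 guides and 352 ± 40.9 RPKM in the controls (SD, n = 4 each), and it fell by 0.45 ± 0.08 on the log2 scale (limma, adjusted p = 0.0167). This test takes the libraries of a group as independent samples. With group means as samples in their place, HSPD1 did not pass (limma, adjusted p = 0.414). In bulk RNA, fewer cells of a type and less RNA per cell cannot be told apart.

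HSPE1 (ENSG00000115541.6) had 203 and 190.3 RPKM with guide 1, and 187 and 184 with guide 2, against 305 and 299 RPKM with the non-targeting guide and 215 and 209.6 RPKM without a guide. Its e3 libraries were again below all 4 control libraries, but the no-guide values lay close above them and far below the non-targeting ones. With both controls pooled the difference was -0.40 ± 0.13 and did not pass (limma, adjusted p = 0.0971). Against the non-targeting guide alone HSPE1 fell by 0.66 ± 0.05 (limma, adjusted p = 0.00231) and HSPD1 by 0.59 ± 0.05 (limma, adjusted p = 0.00327). Against no guide alone HSPD1 fell by 0.31 ± 0.06 (limma, adjusted p = 0.00812), while the difference of HSPE1 was -0.15 ± 0.05 (limma, adjusted p = 0.0974). These comparisons share the e3 libraries. Each guide taken alone gave lower levels of both genes than the mean of the controls: HSPD1 fell by 0.41 with guide 1 and 0.49 with guide 2, and HSPE1 by 0.36 and 0.45. The limma adjusted p of these tests was 0.00138 and 0.000313 for HSPD1 and 0.00123 and 0.000248 for HSPE1. Their spread is that within groups and leaves out the difference between the controls, which the pooled test includes. For HSPE1 the standard error was 0.04 here and 0.13 in the pooled test, so these p-values cannot be set against the pooled ones. Both genes have processed pseudogenes elsewhere in the genome, so the assignment of some reads is uncertain.

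**Figure D1:**
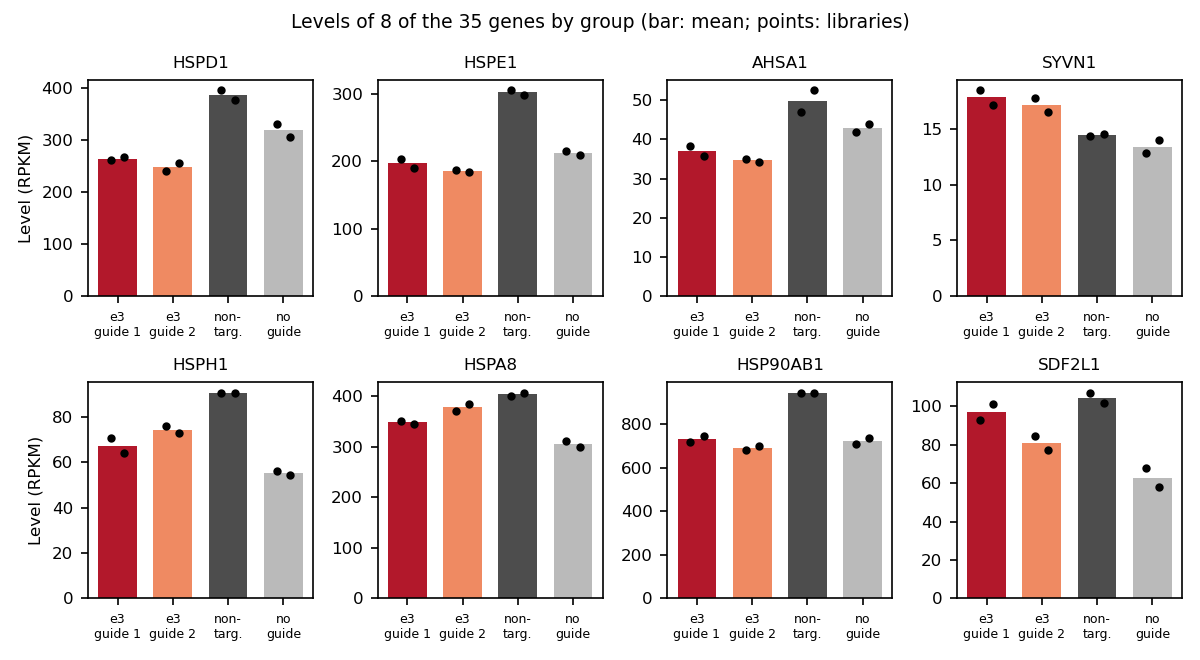
Levels in RPKM (vertical axis, starting at 0) of 8 of the 35 genes in the 4 groups; bars are group means and points the 2 libraries of each group. HSPD1, HSPE1 and AHSA1 are lowest with the e3 guides, SYVN1 is highest with them, and for HSPH1, HSPA8 and SDF2L1 the e3 libraries lie below the non-targeting guide and above no guide.

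Across all 35 genes, few differed between the e3 libraries and the pooled controls. With the e3 guides 1 member was higher (SYVN1) and 2 were lower (HSPD1 and AHSA1), which is 8.57% of the members against 5.2% of all genes tested, and 8 members had an unadjusted p under 0.05. The median log2 change was -0.02 over the 35 members and -0.02 over all genes tested. By compartment the median was -0.13 in the cytosol, -0.43 for the mitochondrial pair and 0.05 in the ER. Groups did not overlap for 2 members that were higher (SYVN1 and DNAJB1) and 4 that were lower (HSPD1, HSPE1, AHSA1 and HSP90B1), against 7.58% of genes higher and 7.51% lower. The 3 calls thinned when single libraries were left out: 1 member (HSPD1) remained without either guide 1 library or either non-targeting library, and 0 remained without either guide 2 library. The fall of HSPD1 lay between -0.52 and -0.33 over 18 alternatives and passed in 14 of them, against 6 for AHSA1 and 4 for SYVN1. With group means as samples in place of libraries, 0 of the 3 passed.

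AHSA1 (ENSG00000100591.3, chromosome 14) encodes the co-chaperone that speeds up the ATPase of HSP90. Its level was 38.2 and 35.6 RPKM with guide 1, and 35.1 and 34.2 with guide 2, against 47.0 and 52.5 RPKM with the non-targeting guide and 42.0 and 44.0 RPKM without a guide. All e3 libraries were below all controls. AHSA1 averaged 35.8 ± 1.73 RPKM with the e3 guides and 46.4 ± 4.60 RPKM in the controls (SD, n = 4 each) and fell by 0.36 ± 0.08 (limma, adjusted p = 0.0344). It was the only cytosolic member that was lower against each control alone, with falls of 0.46 ± 0.07 against the non-targeting guide (limma, adjusted p = 0.015) and 0.26 ± 0.07 against no guide (limma, adjusted p = 0.0401).

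SYVN1 (ENSG00000162298.11, chromosome 11) encodes the ubiquitin ligase HRD1, which marks misfolded ER proteins for degradation. It had 18.5 and 17.2 RPKM with guide 1, and 17.8 and 16.5 with guide 2, against 14.4 and 14.6 RPKM with the non-targeting guide and 12.8 and 14.0 RPKM without a guide. The e3 libraries were above all controls, with 128 to 221 reads behind each value. SYVN1 averaged 17.5 ± 0.833 RPKM with the e3 guides and 13.9 ± 0.789 RPKM in the controls (SD, n = 4 each) and rose by 0.31 ± 0.07 (limma, adjusted p = 0.0467). Against no guide alone it rose by 0.36 ± 0.09 (limma, adjusted p = 0.0267), and against the non-targeting guide alone the difference was 0.26 ± 0.08 (limma, adjusted p = 0.107).

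The 2 controls gave different pictures of the cytosolic genes. Against the non-targeting guide alone, 11 of the 35 members were lower with the e3 guides and 0 were higher, where 3.54% of all genes were lower and 3.3% higher (limma; 21 members had an unadjusted p under 0.05 in either direction). Of those 11, 8 were cytosolic, both mitochondrial genes were among them, and MANF, a secreted ER protein that supports cell survival, was the only one from the ER. Against no guide alone, 8 members were higher and 2 lower, where 8.68% of all genes were higher and 8.03% lower. Of the 8 that were higher, 6 were ER genes. The median change of the 13 cytosolic genes was -0.29 against the non-targeting guide and 0.04 against no guide, and that of the 20 ER genes was -0.00 and 0.12, beside 0.00 and -0.03 over all genes tested. Both comparisons share the 4 e3 libraries. The counts against a single control depend on each library of that control. Against the non-targeting guide, 0 members were called without its replicate 1, 1 (HSPE1) without its replicate 2, and 7 without guide 2 replicate 2, against 11 with all libraries. Against no guide, 1 (SDF2L1) was called without its replicate 1, 2 without its replicate 2, and 6 without guide 1 replicate 1, guide 1 replicate 2 or guide 2 replicate 1, against 10 with all libraries. After quantile normalization, 7 members were lower and 1 (CALR) higher against the non-targeting guide.

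**Figure D2:**
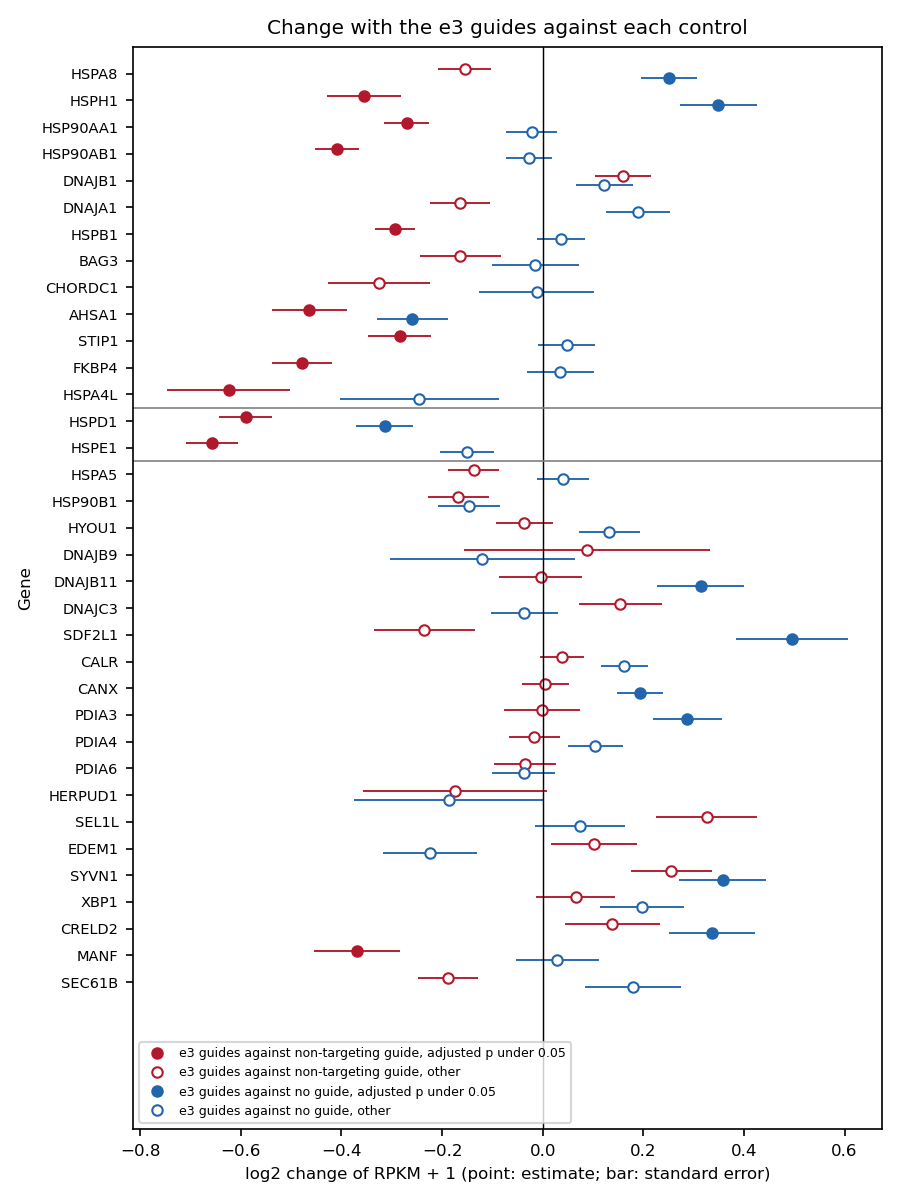
Log2 change of RPKM + 1 (horizontal axis) of each member, from cytosolic genes at the top to ER genes at the bottom, for e3 libraries against non-targeting ones (red) and against no guide (blue); points are limma estimates, bars standard errors and filled points adjusted p under 0.05. Most cytosolic genes have red points left of 0 and blue points near 0, whereas HSPD1 lies left of 0 in both and SYVN1 right of 0 in both.

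HSP90AB1 (ENSG00000096384.13), the constitutive cytosolic HSP90 and the member with the highest level per length, had 715 and 745 RPKM with guide 1, and 681 and 697 with guide 2, against 944 and 939.9 RPKM with the non-targeting guide and 710.1 and 735 RPKM without a guide. The non-targeting libraries stood above the other 6, and the e3 and no-guide libraries overlapped. Its fall against the non-targeting guide was 0.41 ± 0.04 (limma, adjusted p = 0.00486), and its difference from no guide was -0.03 ± 0.05 (limma, adjusted p = 0.743). HSP90AA1, the stress-inducible HSP90, ran the same way, with 344 to 370.2 RPKM in the e3 libraries, 432 and 422 RPKM with the non-targeting guide and 373 and 346 RPKM without a guide. So did FKBP4, an HSP90 co-chaperone of steroid receptors, with 63.2 to 70.1 RPKM in the e3 libraries, 91.6 and 91.8 RPKM with the non-targeting guide and 61.6 and 66.4 RPKM without a guide. Reads of HSP90AA1, HSP90AB1, HSPA8 and HSPB1 can be shared with processed pseudogenes, which makes their levels less certain.

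The other cytosolic members called against the non-targeting guide were lower by 0.27 to 0.62. HSPH1, the HSP110 that exchanges nucleotide on HSP70, fell by 0.36, STIP1, which links HSP70 to HSP90, by 0.28, and HSPB1, the small heat shock protein HSP27, by 0.29 (limma, adjusted p = 0.0303, 0.0373 and 0.00853). HSP90AA1 fell by 0.27 and FKBP4 by 0.48 (limma, adjusted p = 0.016 and 0.00736). HSPA4L, an HSP110 relative at a low level of 6.44 to 8.17 RPKM in the e3 libraries, fell by 0.62 (limma, adjusted p = 0.026). Against no guide alone none of STIP1, HSPB1, HSP90AA1, FKBP4 and HSPA4L passed, with log2 changes of -0.25 (HSPA4L) to 0.05 (STIP1).

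HSPA8 and HSPH1 lay between the controls. HSPA8 (ENSG00000109971.8), the constitutive HSP70, had 351 and 344 RPKM with guide 1, and 371 and 384 with guide 2, against 400.2 and 407 RPKM with the non-targeting guide and 310.3 and 298 RPKM without a guide. Each e3 library was below both non-targeting libraries and above both no-guide libraries. It rose by 0.25 ± 0.05 against no guide (limma, adjusted p = 0.0181), and its difference from the non-targeting guide was -0.16 ± 0.05 (limma, adjusted p = 0.13). HSPH1 (ENSG00000120694.13) had 70.7 and 64.0 RPKM with guide 1, and 76.0 and 73.0 with guide 2, against 90.8 and 90.8 RPKM with the non-targeting guide and 56.1 and 54.6 RPKM without a guide. It passed in opposite directions, higher by 0.35 ± 0.08 against no guide (limma, adjusted p = 0.0177) and lower by 0.36 ± 0.07 against the non-targeting guide. DNAJA1, a DNAJ co-chaperone of HSPA8, and the ER protein SDF2L1 were also between the controls, which makes 4 of 35 members against 1.11% of all genes. All 4 averaged above 50 RPKM, and the share of abundant genes with this pattern is not given here.

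The cytosolic members DNAJA1, DNAJB1, BAG3 and CHORDC1 passed against neither control. DNAJA1 had log2 changes of -0.16 against the non-targeting guide and 0.19 against no guide. DNAJB1, the HSP40 that loads clients onto HSP70, was the one cytosolic gene above both controls, with 125 to 138 RPKM in the e3 libraries, 115 and 118 RPKM with the non-targeting guide and 117 and 121 RPKM without a guide (log2 change 0.14 ± 0.05 against both controls; limma, adjusted p = 0.152). BAG3, which couples HSP70 to autophagy, had 34.8 to 39.1 RPKM in the e3 libraries, within the range of the controls (34.6 to 44.4 RPKM). CHORDC1, an HSP90 co-chaperone, had 7.44 to 8.56 RPKM with the e3 guides, 9.78 and 10.4 RPKM with the non-targeting guide and 8.57 and 7.28 RPKM without a guide.

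In the ER, 1 of 20 members was lower in e3 libraries against non-targeting ones, where 3.54% of all genes were lower, and 6 of 20 were higher against no guide, where 8.68% of all genes were higher. SDF2L1 (ENSG00000128228.4), which prolongs the binding of BiP to its clients, showed the largest change of any member against no guide. Its level was 93.1 and 101 RPKM with guide 1, and 84.6 and 77.4 with guide 2, against 107 and 102 RPKM with the non-targeting guide and 67.7 and 57.8 RPKM without a guide. The no-guide libraries were below the other 6, and guide 2 lay below guide 1. SDF2L1 rose by 0.50 ± 0.11 against no guide (limma, adjusted p = 0.0202) and had a difference of -0.23 ± 0.10 from the non-targeting guide (limma, adjusted p = 0.224).

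The other ER members called as higher against no guide were CANX, the membrane lectin chaperone calnexin (0.19), PDIA3, its disulfide isomerase partner (0.29), DNAJB11, a DNAJ co-chaperone of BiP (0.31), CRELD2, a secreted ER stress protein (0.34), and SYVN1. Their limma adjusted p was 0.0245, 0.0256, 0.042, 0.0318 and 0.0267. CANX had 143 to 147 RPKM in the e3 libraries, 148 and 141 RPKM with the non-targeting guide and 128 and 126 RPKM without a guide. PDIA3 had 242 to 278 RPKM with the e3 guides, 271 and 245 RPKM with the non-targeting guide and 212 and 209 RPKM without a guide. For both genes the no-guide libraries were the lowest and the e3 and non-targeting libraries overlapped.

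Of the most abundant ER chaperones, HSPA5, HSP90B1 and CALR passed neither against both controls nor against either one alone. HSPA5 (ENSG00000044574.6), the ER HSP70 known as BiP and the usual readout of ER stress, had 338 and 344 RPKM with guide 1, and 315 and 317 with guide 2, against 365 and 357 RPKM with the non-targeting guide and 319.7 and 318 RPKM without a guide. Guide 1 lay between the controls and guide 2 just below both. Its log2 change was -0.05 ± 0.06 against both controls (limma, adjusted p = 0.713), -0.14 ± 0.05 against the non-targeting guide and 0.04 ± 0.05 against no guide. HSP90B1, the ER HSP90 known as GRP94, had 404 and 416 RPKM with guide 1, and 362 and 376 with guide 2, against 439 and 435 RPKM with the non-targeting guide and 436 and 425 RPKM without a guide (log2 change -0.16 ± 0.06; limma, adjusted p = 0.132). All e3 libraries were below all controls for HSP90B1. CALR, the soluble lectin chaperone calreticulin, had 667 to 725 RPKM with the e3 guides, 683 and 661 RPKM with the non-targeting guide and 600.1 and 633 RPKM without a guide, with a difference from no guide of 0.16 ± 0.05 (limma, adjusted p = 0.0502).

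MANF was the only ER member lower against the non-targeting guide, with 40.4 to 47.9 RPKM in the e3 libraries, 54.4 and 61.2 RPKM with the non-targeting guide and 42.0 and 45.2 RPKM without a guide. It fell by 0.37 ± 0.08 (limma, adjusted p = 0.0414), and its e3 and no-guide libraries overlapped. SEC61B had 75.7 to 79.4 RPKM with the e3 guides, 84.6 and 93.4 RPKM with the non-targeting guide and 60.3 and 78.3 RPKM without a guide. XBP1 had 41.2 to 49.1 RPKM with the e3 guides, 43.6 and 42.1 RPKM with the non-targeting guide and 40.8 and 37.3 RPKM without a guide. Neither SEC61B nor XBP1 passed in a comparison of e3 libraries with controls.

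The remaining ER members had no call in these 3 comparisons. They were HYOU1, the ER HSP110 (64.6 to 70.2 RPKM in the e3 libraries), DNAJB9 (3.67 to 5.90 RPKM) and DNAJC3 (38.8 to 41.9 RPKM), both BiP co-chaperones, and the disulfide isomerases PDIA4 (302 to 332 RPKM) and PDIA6 (79.9 to 88.2 RPKM). The degradation genes without a call were HERPUD1, a membrane scaffold (6.09 to 9.87 RPKM), SEL1L, the partner of SYVN1 (12.3 to 13.0 RPKM), and EDEM1, which trims mannose from misfolded glycoproteins (16.7 to 19.4 RPKM). DNAJB9 varied most within a group, with 3.24 and 6.26 RPKM in the non-targeting libraries and only 31 to 74 reads per library. EDEM1 was the only member for which both no-guide libraries exceeded the other 6, with 17.1 and 16.8 RPKM with the non-targeting guide and 22.9 and 20.3 RPKM without a guide, and 15.4% of all genes had that pattern. Its difference between the controls was -0.33 ± 0.10 (limma, adjusted p = 0.0807).

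The guides were also set against the mean of the controls one at a time. With guide 1, 2 members were higher (CALR and SYVN1) and 6 lower (HSP90AA1, HSP90AB1, AHSA1, FKBP4, HSPD1 and HSPE1), where 4.96% of all genes were higher and 4.03% lower. With guide 2, 7 members were lower (HSP90AB1, AHSA1, HSPA4L, HSPD1, HSPE1, HSPA5 and HSP90B1) and 0 higher, where 7.62% of all genes were lower and 6.85% higher. Most of the members called averaged 50 RPKM or more, and shares among genes at that level were not computed for the single guides. These comparisons share the control libraries. Their spread is that within the 4 groups and leaves out the difference between the controls. A call can therefore rest on the non-targeting libraries alone. FKBP4 averaged 64.0 RPKM with guide 1 and 64.0 RPKM without a guide, and HSP90AB1 730 and 723 RPKM. HSPA5 averaged 316 RPKM with guide 2 and 319 RPKM without a guide. HSPD1, HSPE1 and AHSA1 were below every control library with each guide. In the direct test of guide 2 against guide 1, 0 of the 35 members were called by limma and 8 had an unadjusted p under 0.05, where 4 of the 13979 genes were called (0.0286%), so no member was shown to differ between the guides. The largest differences of guide 2 from guide 1 in each direction were 0.48 ± 0.13 for HERPUD1 and -0.26 ± 0.09 for SDF2L1 (limma, adjusted p = 0.287 and 0.368). For guide 1 the count was 2 without its replicate 1, 3 without its replicate 2, 4 and 3 without non-targeting replicates 1 and 2, and 5 without no-guide replicate 2, against 8 with all libraries. For guide 2 it was 4 without its replicate 2, against 7. With guide 2, scaling also moved the split: it was 2 higher and 6 lower after median-ratio scaling, 3 and 6 after quantile normalization, and 2 and 5 after scaling to a common sum of RPKM, with HSPA8 among the higher genes in each.

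The controls differed from each other in these genes. Of the 35 members, 14 were higher with the non-targeting guide and 0 were lower than in cells given no guide, where 6.55% of all genes were higher and 5.81% lower. The 14 were 8 cytosolic genes (HSPA8, HSPH1, HSP90AA1, HSP90AB1, DNAJA1, HSPB1, STIP1 and FKBP4), both mitochondrial genes, and HSPA5, SDF2L1, CANX and MANF of the ER. Median changes were 0.33 in the cytosol, 0.39 for the mitochondrial pair and 0.13 in the ER, beside -0.01 over all genes tested. SDF2L1 (0.73 ± 0.09) and HSPH1 (0.70 ± 0.06) rose most (limma, adjusted p = 0.00157 and 0.000366), followed by HSPE1 and FKBP4 (0.51 each), HSPA8 (0.41), MANF (0.40) and HSP90AB1 (0.38). Without non-targeting replicate 1 the count was 9, and after quantile normalization it was 8. These tests share the non-targeting libraries with those of e3 libraries against non-targeting ones.

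**Figure D3:**
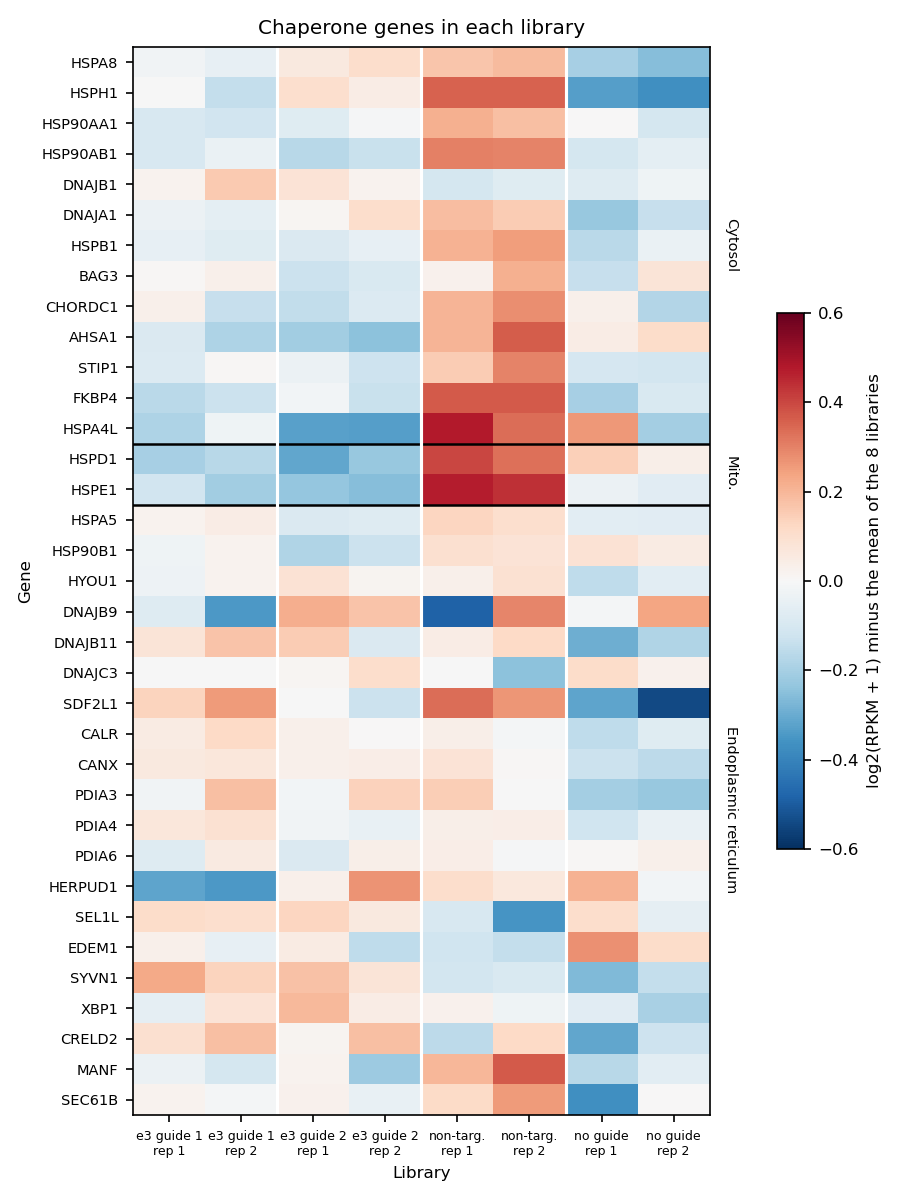
Level of each member (rows, by compartment) in each of the 8 libraries (columns), as log2(RPKM + 1) minus the mean of that gene over the libraries; red is above and blue below the mean. The non-targeting columns are red for 11 of the 13 cytosolic genes and both mitochondrial genes, where they exceed all 6 other libraries, and the no-guide columns are the lowest for 8 of the 20 ER genes.

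Both non-targeting libraries were above the other 6 libraries for 17 of the 35 members, against 8.79% of all genes. The 17 were 11 of 13 cytosolic genes, both mitochondrial genes and 4 of 20 ER genes (HSPA5, SDF2L1, MANF and SEC61B). Both no-guide libraries were below the other 6 for 11 members, 3 in the cytosol and 8 in the ER, against 12.5% of all genes. Summed over the 13 cytosolic genes, the level was 2271 to 2312 RPKM with the e3 guides, 2781 and 2808 RPKM with the non-targeting guide and 2192 and 2220 RPKM without a guide. For the mitochondrial pair it was 428 to 464 RPKM with the e3 guides, 701 and 676 RPKM with the non-targeting guide and 546 and 516 RPKM without a guide. The 20 ER genes summed to 2647 to 2849 RPKM with the e3 guides, 2839 and 2785 RPKM with the non-targeting guide and 2506 and 2550 RPKM without a guide. In the cytosolic sum the e3 libraries were nearer to the no-guide than to the non-targeting libraries, in the mitochondrial sum they were below both controls, and in the ER sum they were above no guide and overlapped the non-targeting libraries.

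Most members are abundant transcripts, and a larger share of abundant genes was called. Of the 1320 genes averaging 50 RPKM or more, 21 were members. Between the controls, 13 of the 21 were higher with the non-targeting guide and 0 lower, against 24.7% and 8.48% of the 1320. In e3 libraries against non-targeting ones, 8 of the 21 were lower and 0 higher, against 19.4% and 10.1%. Against no guide, 5 of the 21 were higher and 1 lower, against 20.8% and 18.2%, so the count of higher members is near the share of abundant genes. The non-targeting libraries were above the other 6 for 13 of the 21, against 25.2%. The median change between the controls was 0.29 over the 21 members and 0.09 over the 1320 genes.

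Other folding genes, from lists that hold none of the members, were counted in the same fits. In the cytosolic chaperonin TRiC, which folds actin and tubulin, and prefoldin, which hands it its clients, 9 of 14 genes were lower with the e3 guides than with the non-targeting guide and 0 were higher, where 3.54% of all genes were lower. The 9 comprised all 8 TRiC genes and PFDN2, and the median was -0.37. Of genes averaging 50 RPKM or more, 19.4% were lower in this comparison. Against no guide alone, 1 of the 14 was lower and 1 higher, where 8.03% of all genes were lower and 8.68% higher. The median against no guide was -0.11. CCT7 had 213 and 211 RPKM with guide 1, and 204 and 199 with guide 2, against 284 and 283 RPKM with the non-targeting guide and 232 and 234 RPKM without a guide. As for HSPD1, the no-guide libraries lay between the e3 and the non-targeting ones. Against both controls CCT8 fell by 0.34 ± 0.08 (limma, adjusted p = 0.0464), and CCT7 and CCT3 had changes of -0.31 and -0.27 (limma, adjusted p = 0.0522 and 0.0624). Between the controls, 7 of the 14 genes were higher with the non-targeting guide. The share was 6.55% of all genes and 24.7% of those averaging 50 RPKM or more. The 3 with the smallest p were PFDN2 (0.67), CCT5 (0.32) and CCT7 (0.28).

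Among 24 other mitochondrial chaperones, proteases and import genes, 3 were lower with the e3 guides than in the pooled controls and 0 higher. Of all genes, 2.58% were lower and 2.63% higher. HSPA9, the mitochondrial HSP70, fell by 0.31 ± 0.06, TRAP1, the mitochondrial HSP90, by 0.61 ± 0.13, and DNAJC19, an import co-chaperone, by 0.53 ± 0.12 (limma, adjusted p = 0.0228, 0.0312 and 0.0379). HSPA9 had 91.3 and 89.5 RPKM with guide 1, and 87.3 and 86.9 with guide 2, against 118 and 103 RPKM with the non-targeting guide and 115 and 106 RPKM without a guide, so that its controls overlapped. The median of the 24 genes was -0.27 against the non-targeting guide, with 7 lower where 3.54% of all genes were, and -0.16 against no guide, with 4 lower where 8.03% of all genes were. Between the controls, TOMM40 (0.53) and CLPP (0.44) were higher with the non-targeting guide, and GRPEL1 had a change of 0.38 that did not pass.

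Some genes of the wider ER lists were higher with the e3 guides. Of 45 other ER folding and translocation genes tested, 3 were higher than in the pooled controls and 0 lower. Of all genes, 2.63% were higher. The 3 were QSOX1, a sulfhydryl oxidase (0.50 ± 0.05), CALU, a calcium-binding ER protein (0.51 ± 0.05), and P4HB, a disulfide isomerase (0.41 ± 0.08). Their limma adjusted p was 0.00215, 0.00215 and 0.0201. QSOX1 had 169 and 177 RPKM with guide 1, and 176 and 174 with guide 2, against 122 and 126 RPKM with the non-targeting guide and 119.5 and 125 RPKM without a guide. Its controls overlapped, and the e3 libraries stood above both. The controls themselves differed for 5 of the 45 genes, all higher with the non-targeting guide, where 6.55% of all genes were higher. The 3 with the smallest p were ERO1L (0.62), P4HB (0.28) and PPIB (0.38). Of 22 other ER degradation genes, 3 were higher than in the pooled controls (EDEM2 by 0.56, OS9 by 0.31 and MAN1B1 by 0.31) and 0 lower. Between the controls, 2 of the 22 were higher with the non-targeting guide, UFD1L (0.48) and SELS (0.49), where 6.55% of all genes were. HERPUD2 had a change of -0.51 between the controls that did not pass. Of 23 signalling genes of the unfolded protein response, 1 was higher than in the pooled controls (CREB3L2, by 0.66), near the 2.63% of all genes. CRELD1 (0.39) and ASNS (-0.43) did not pass. Against no guide alone, 6 of the 23 were higher and 1 lower, where 8.68% of all genes were higher and 8.03% lower. Against the non-targeting guide alone, 2 were higher and 0 lower, where 3.3% of all genes were higher. Between the controls, CEBPB (0.89), CREB3L1 (0.70) and PPP1R15A (0.39) were higher with the non-targeting guide and 1 gene was lower. Of all genes, 6.55% were higher and 5.81% lower. ATF4 had 109.7 to 121 RPKM with the e3 guides, 128 and 125 RPKM with the non-targeting guide and 115 and 119.9 RPKM without a guide.

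A further list was drawn up for the cytosol, though not every gene in it is a cytosolic chaperone. Of its 38 genes tested, 2 were higher than in the pooled controls and 0 lower, where 2.63% of all genes were higher. DNAJB2, a DNAJ protein, rose by 0.66 ± 0.10 (limma, adjusted p = 0.00999). TSC22D3, which is not a chaperone and was listed in error, rose by 0.55, and PIH1D1 had a change of -0.29 that did not pass. Against the non-targeting guide alone, 4 of the 38 were lower and 2 higher, where 3.54% of all genes were lower and 3.3% higher. Against no guide alone, 3 were higher and 0 lower, where 8.68% of all genes were higher. The median change was -0.13 against the non-targeting guide and 0.01 against no guide. Between the controls, 6 of the 38 were higher with the non-targeting guide, where 6.55% of all genes were; the 3 with the smallest p were HSPA1B (0.54), HSPBP1 (0.47) and CDC37 (0.34). HSPA1B, a stress-inducible HSP70 whose reads can be shared with a near-identical copy, had 229.6 to 278 RPKM with the e3 guides, 258 and 269 RPKM with the non-targeting guide and 178 and 183 RPKM without a guide. None of 4 genes for heat shock factors and their binding protein passed with the e3 guides against both controls (limma; 0 had an unadjusted p under 0.05), with changes of -0.32 for HSF2, -0.02 for HSF1 and 0.08 for HSBP1. Between the controls HSF1 was higher with the non-targeting guide, by 0.34 ± 0.08 (limma, adjusted p = 0.0337), and HSBP1 (0.16) and HSF2 (-0.15) did not pass.

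**Figure D4:**
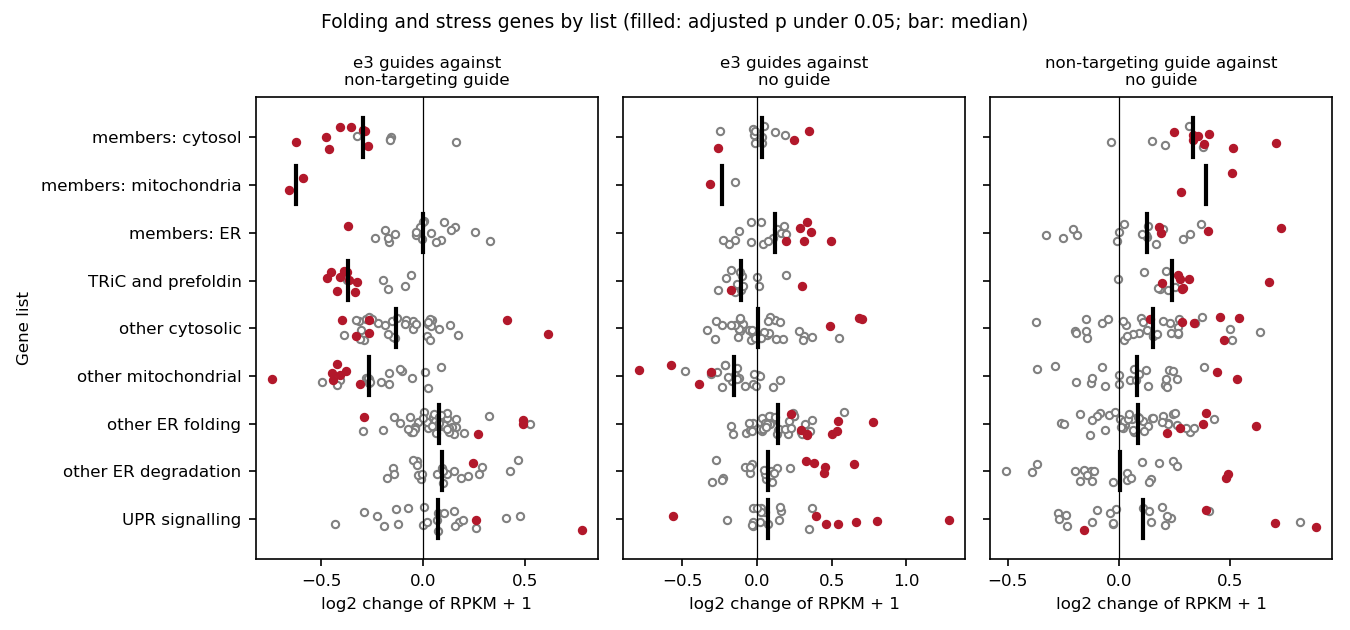
Log2 change of RPKM + 1 (horizontal axis) of each gene of the member compartments and of the other lists (rows) in 3 comparisons (panels); filled points have a limma adjusted p under 0.05 and vertical bars are list medians. Against the non-targeting guide, 12 of 13 cytosolic members, both mitochondrial members and all 14 TRiC and prefoldin genes lie left of 0, and between the controls 12, 2 and 13 of them lie right of 0; the median of the 20 ER members is -0.00 against the non-targeting guide.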

How the data were processed

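RNA-seq of 8 libraries of NCI-H2009 cells with dCas9-KRAB was used, 2 in each of 4 groups taken from the labels. The deposited values were RPKM per gene made by the authors, with 1 column per library and 52576 rows; per the submitters' processing notes, hg19 and Cufflinks were used, with neither role nor version. The annotation, aligner, strand setting and way of counting are not given in the sources used here. RPKM steps gave whole reads for 13979 of 13979 tested genes, to within 0.03 reads, and these reads (3847807 to 5711042 per library in tested genes) served only to judge depth. RPKM were tested as log2(RPKM + 1), which understates the change of low genes, with limma 3.58.1 in R 4.3.3 (two-sided moderated test, variance trend). Genes averaging 1 RPKM or more entered, with Benjamini-Hochberg adjustment over all genes tested and a threshold of 0.05. The e3 guides against both controls used 2 groups, comparisons with one control the 6 libraries concerned, and single guides and the controls against each other a model of 4 groups. The tests were tried on simulated data. All 35 members are named, with up to 3 genes by smallest p from each other list in each of 2 comparisons; the levels of ATF4 were added after its values were seen. The members and lists were chosen with earlier results of these data known. Chromosomes are from GENCODE, and promoter windows and their coordinates from RefSeq on GRCh38.p14, matched by symbol. Alternatives were another pseudocount, other filters, scalings, no variance trend, a replicate block, an estimated within-group correlation, group means, and each library left out in turn.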

Additional observations from a re-analysis of the deposited data

How the results depend on the processing

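Counts of the 35 members called were recomputed under each alternative, and no called direction turned. For the e3 guides against both controls (3 members), 1 remained with no filter on low values and with the correlation within groups estimated, and 0 with no variance trend or with group means as samples, where the adjusted p of HSPD1 was 0.414. Leaving out 1 library gave 0 to 2. Against the non-targeting guide alone (11), the count was 5 with no filter, 0 with no variance trend and 0 to 10 with 1 library left out. Against no guide alone (10), it was 3, 1 and 1 to 7. Guide 1 alone (8) gave 4, 2 and 2 to 8, and guide 2 alone (7) gave 11 with a minimum mean of 5 RPKM, 3 with no variance trend and 4 to 7 with 1 library left out. Between the controls (14) it was 8 after quantile normalization, 6 with no variance trend and 9 to 14 with 1 library left out. Where a library left out leaves a group with 1, that library is assumed to vary like the others. Guide 2 against guide 1 gave 0 throughout. Scaling to a common sum of RPKM was chosen after seeing the data and gave 3, 8, 11, 8, 7, 0 and 13 members in the order of these comparisons, guide 2 against guide 1 before the controls; 1 of the 13, EDEM1, was lower. With the replicate number as a block the counts were 1, 8, 7, 6, 5, 0 and 13, in the same order. The numbers did not pair the libraries, since the deviations of same-numbered libraries correlated by -0.0223 to 0.0138. HSPD1 and HSPE1 were lower with each guide alone in all 16 alternatives. DNAJB9 had 31 to 74 and HERPUD1 53 to 106 reads per library, which limits the precision of their changes.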
